A study of Musa acuminata AAA Group with 4 samples.

Results

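Transcript levels in leaf and root of banana at normal potassium were compared for 440 genes that the authors tied to potassium supply. Of these, 410 are listed in both of the authors' tissue tables, which hold genes that differed between low and normal potassium in leaf (1183 genes) and in root (4747 genes). Another 31 are the genes of the authors' table on potassium transport and uptake, and 1 gene, potassium transporter 1 (Ma05_g07130), is in both sets. All tables together name 5520 genes, and genes outside these 440 were not analysed here. Seedlings of Cavendish, a triploid dessert banana of the Musa acuminata AAA Group, grew for 60 days on low-potassium solution or on complete Hoagland solution. The 4 libraries are 1 of low-potassium leaf, 1 of low-potassium root, 1 of normal-potassium leaf and 1 of normal-potassium root, and the labels do not say whether plants were pooled. Most of the account sets leaf against root at normal supply. With 1 library per group nothing could be tested against replicate spread. Every fold therefore describes a pair of libraries, and the 95% interval given with it reflects counting error alone.

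Potassium is the main inorganic cation of plant cells. Roots take it up through carriers of the KUP/HAK/KT family and through voltage-gated channels, it is loaded into the xylem, and leaves store it in vacuoles and use it to move guard cells and to balance charge. When supply is short, calcineurin B-like (CBL) calcium sensors and their interacting kinases (CIPKs) act on channels and carriers, and jasmonate and ethylene signalling, reactive oxygen and cell wall remodelling have been tied to the response in other plants.

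Normal-potassium leaf had 4302808 fragments assigned to genes and normal-potassium root had 4555265, as recovered from the deposited values. The tissue labels could be checked only in part. No photosynthesis gene is listed in both tables: 8 such genes of the leaf table lay between 9.92 and 96.6 FPKM in normal-potassium leaf, and 5 other listings of the root table lay between 2.60 and 13.4 FPKM in normal-potassium root. FPKM, the unit of these levels, is a fragment count scaled for gene length and library total. Of the root markers, a CASP-like protein (Ma09_g31490), of the family that includes the Casparian strip proteins, had 0 fragments in leaf and 10.1 FPKM in root, at least 8.50-fold higher in root. The root isozyme of ferredoxin–NADP reductase (Ma04_g34890), which feeds electrons to nitrate assimilation in tissue that is not green, had 38.8 FPKM in leaf and 318 FPKM in root. Both root markers were higher in root.

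Most of the 410 shared genes had more transcript in root than in leaf at normal potassium. The median level was 7.97 FPKM in leaf and 25.3 FPKM in root, and the shared genes took 1.05% of the assigned fragments of leaf and 4.20% of those of root. A gene is called leaf-preferring or root-preferring here where its FPKM values differed at least 2-fold. By that rule 51 genes (12.4%) were leaf-preferring, 254 (62.0%) were root-preferring and 105 (25.6%) were neither. The median log2 ratio of leaf over root was -1.68, which is 3.20-fold higher in root. The middle of the distribution was wide, with quartiles at -3.19 and -0.32. The large differences lay on the root side: 94 genes were at least 10-fold higher in root and 10 were at least 10-fold higher in leaf, and at 50-fold the counts were 23 in root and 0 in leaf. Counting error was small beside these folds, since the interval left out 1 for 50 of the 51 leaf-preferring genes and 246 of the 254 root-preferring genes, and 6 more of the root-preferring genes had a leaf count of 0 and hence a lower bound.

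These levels are set side by side by the authors' scaling to fragments assigned, and a scaling by genes outside the 440 was not run. When each tissue was scaled instead by the median ratio over the 410 genes, which sets that median to 0 by construction and shifts every log2 ratio by 1.68, 131 genes were leaf-preferring and 135 root-preferring. The leaf-preferring share of all calls was then 49.2% rather than 16.7%, and 128 genes changed sign. In bulk tissue, fewer cells of a type and less RNA per cell cannot be told apart. All 4 libraries also entered the choice of the shared genes, through low over normal potassium, so the preferences describe these genes and not the tissues at large. The root excess was not seen in the calls of genes listed as lower in leaf in low potassium. Of 30 such genes listed as higher in root, 11 were leaf-preferring and 7 root-preferring. Of 33 listed as lower in root, 11 were leaf-preferring and 10 root-preferring.

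**Figure D1:**
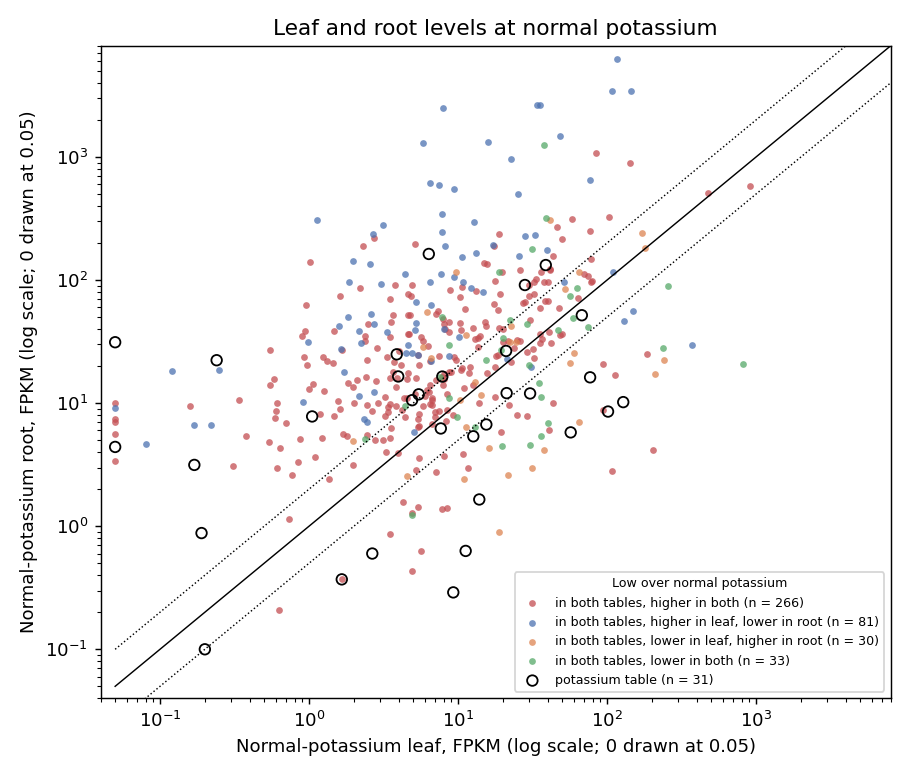
Each point is 1 gene, with its FPKM in normal-potassium leaf on the x axis and in normal-potassium root on the y axis (both log scale, 0 drawn at 0.05). The solid line marks equal levels and the dotted lines a 2-fold difference; colours give the authors' direction of low over normal potassium in each tissue, and open circles are the 31 genes of the potassium table. Of the 410 shared genes, 254 lie above the upper dotted line and 51 below the lower one.

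The leaf-preferring genes with the largest folds and at least median abundance included membrane carriers, a proteinase, a lipocalin and a transcription factor. The light-regulated protein Ma06_g30390, named for light-responsive homologs, had 204 FPKM in leaf and 4.16 FPKM in root, 48.9-fold higher in leaf (95% interval 23.5 to 123). Protein P21-like Ma04_g38470, of the thaumatin type found among plant defence proteins, had 107 FPKM in leaf and 2.82 FPKM in root, 38.1-fold higher in leaf (19.1 to 89.0). These were the 2 leaf-preferring genes with informative names and the largest folds under that rule, and each had fewer than 10 fragments in root.

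The aspartic proteinase nepenthesin-1-like Ma08_g02730, of a family named for the digestive enzyme of pitcher plants, had 373 FPKM in leaf and 29.9 FPKM in root, 12.5-fold higher in leaf (10.7 to 14.7). Apolipoprotein D Ma05_g19400, a lipocalin that binds small lipophilic molecules, had 94.2 FPKM in leaf and 8.73 FPKM in root, 10.8-fold (6.88 to 17.8). Alpha-galactosidase-like Ma04_g21630, of the enzymes that release galactose from raffinose-type sugars, had 41.0 FPKM in leaf and 6.02 FPKM in root, 6.82-fold (4.68 to 10.2). All 3 were well counted in leaf, with at least 206 fragments each.

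Carriers formed the next group. Copper transporter 6-like Ma02_g05010, of the COPT importers, had 209 FPKM in leaf and 17.4 FPKM in root, 12.0-fold higher in leaf (8.40 to 17.7). Putative polyol transporter 1 Ma04_g07020, of the carriers that move sugar alcohols with protons, had 64.5 FPKM in leaf and 7.08 FPKM in root, 9.11-fold (6.85 to 12.4). Aquaporin NIP2-1-like Ma10_g29710, whose rice counterpart Lsi1 is a silicic acid channel of roots, had 238 FPKM in leaf and 28.0 FPKM in root, 8.48-fold (6.94 to 10.5). In these banana libraries the NIP2-1-like transcript was therefore higher in leaf. The high affinity nitrate transporter 2.5-like Ma01_g16930, of the NRT2 carriers, was among the 5 named genes with the highest leaf level, at 256 FPKM in leaf and 89.6 FPKM in root, 2.86-fold higher in leaf (2.59 to 3.16).

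Glutathione S-transferase U18-like Ma05_g10090, which conjugates glutathione to reactive compounds, had 185 FPKM in leaf and 25.3 FPKM in root, 7.30-fold higher in leaf (5.73 to 9.41). NAC transcription factor 29-like Ma06_g33980, whose Arabidopsis counterpart NAP promotes leaf senescence, had 113 FPKM in leaf and 17.1 FPKM in root, 6.59-fold (5.18 to 8.48). The deposited counts of P21-like, the polyol transporter, alpha-galactosidase and the glutathione S-transferase are not whole, so these genes may share fragments with similar ones.

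The root-preferring genes reached both higher folds and higher levels. Sucrose synthase 2-like Ma02_g23730, which splits sucrose into fructose and UDP-glucose where sugar is consumed, had 7.92 FPKM in leaf and 2486 FPKM in root, 314-fold higher in root (253 to 395). Probable linoleate 9S-lipoxygenase 5 Ma01_g18040, which adds oxygen to linoleic acid at carbon 9, had 1.14 FPKM in leaf and 305 FPKM in root, 268-fold (153 to 519). Protein GOS9-like Ma09_g10410, named after a rice gene, had 5.86 FPKM in leaf and 1289 FPKM in root, 220-fold (119 to 459). In leaf all 3 lay below the median of the shared genes (7.97 FPKM), and in root all 3 lay far above it (25.3 FPKM).

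Enzymes of methyl-group metabolism and fermentation followed. Adenosylhomocysteinase Ma09_g01600, which clears the by-product of methylation reactions, had 6.44 FPKM in leaf and 610.3 FPKM in root, 94.8-fold higher in root (69.2 to 133). Phosphoethanolamine N-methyltransferase 1-like Ma11_g10840, which makes phosphocholine by methylation, had 2.71 FPKM in leaf and 239 FPKM in root, 88.2-fold (54.9 to 152). Alcohol dehydrogenase Ma08_g29910, the last enzyme of ethanol fermentation, had 3.15 FPKM in leaf and 281 FPKM in root, 89.4-fold (54.0 to 160). Peroxidase P7-like Ma04_g05290, of the secreted class III peroxidases, had 2.73 FPKM in leaf and 222 FPKM in root, 81.2-fold (45.2 to 163). Extracellular ribonuclease LE-like Ma09_g02210, whose tomato counterpart degrades RNA outside the cell, had 7.46 FPKM in leaf and 595 FPKM in root, 79.7-fold (53.0 to 126). The peroxidase and the ribonuclease have whole deposited counts, and the other 6 genes of these paragraphs do not.

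Lectins and proteinase inhibitors gave the highest root levels of all shared genes. Mannose/glucose-specific lectins, the jacalin-type group to which the banana lectin BanLec belongs, are present as 4 neighbouring gene numbers, Ma09_g10440 to Ma09_g10470. Ma09_g10440 had 117 FPKM in leaf and 6270.1 FPKM in root, 53.7-fold higher in root (43.0 to 68.1). Ma09_g10460 had 145 FPKM in leaf and 3459 FPKM in root, 23.9-fold (21.0 to 27.3). Ma09_g10470 and Ma09_g10450 had 34.1 and 35.8 FPKM in leaf and 2652 and 2657 FPKM in root, folds of 77.8 (60.0 to 103) and 74.2 (57.6 to 97.4). All 4 copies were root-preferring, but their counts are not whole, so how fragments fell between the copies is uncertain. Bowman-Birk type proteinase inhibitor-like Ma05_g10670, which blocks serine proteinases, had 108 FPKM in leaf and 3440.4 FPKM in root, 31.8-fold higher in root (27.5 to 37.1).

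**Figure D2:**
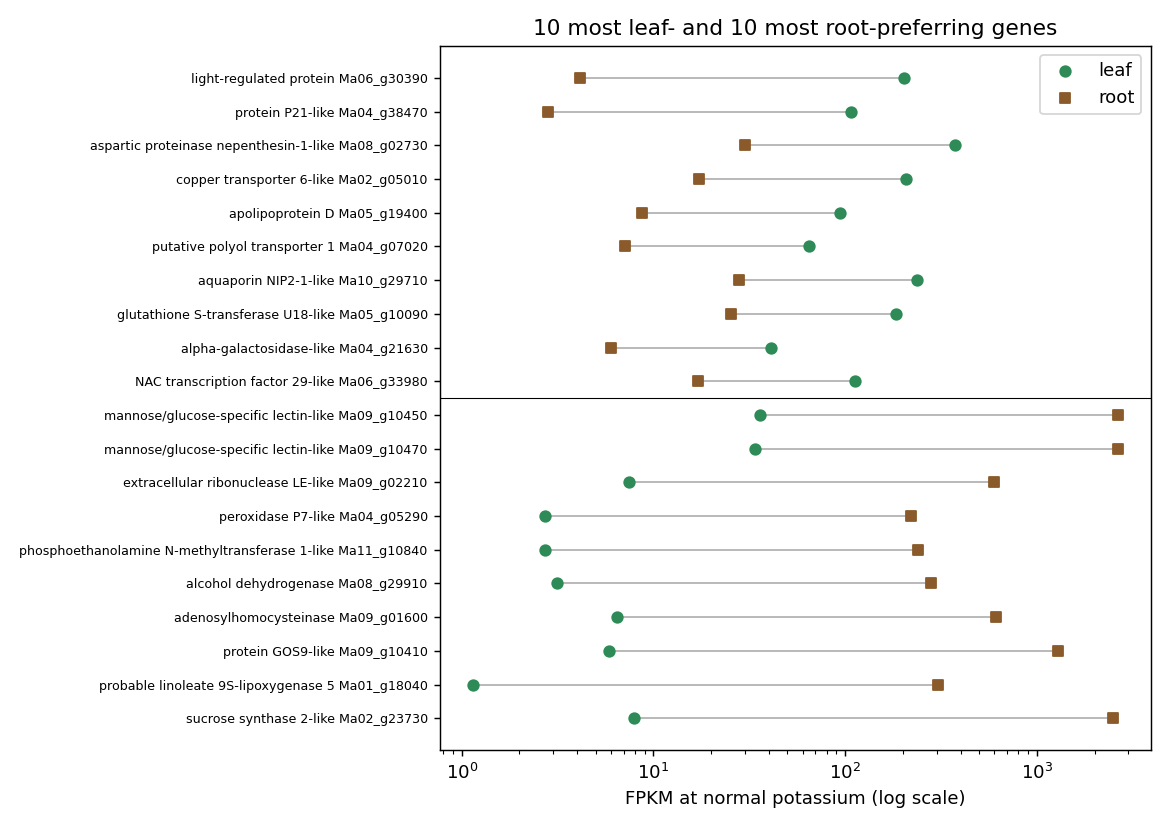
FPKM at normal potassium on the x axis (log scale) for the 10 most leaf-preferring genes (upper rows) and the 10 most root-preferring genes (lower rows) with informative names and a mean level at or above the median; circles are leaf and squares root, 1 library each. Leaf levels of the upper genes span 41.0 to 373 FPKM and root levels of the lower genes span 222 to 2657 FPKM.

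Several genes were at nearly equal levels in both tissues. Dehydrin COR410 Ma11_g01190, a water-stress protein, had 476 FPKM in leaf and 506 FPKM in root, 1.06-fold higher in root (0.987 to 1.14). Remorin-like Ma04_g22800, a plasma membrane protein, had 180.2 FPKM in leaf and 183 FPKM in root, 1.02-fold (0.888 to 1.16). Amino acid permease 4-like Ma06_g14350 had 22.8 FPKM in leaf and 21.8 FPKM in root, 1.05-fold higher in leaf (0.823 to 1.33). The intervals of all 3 include 1, as do those of 53 of the 105 genes under 2-fold.

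At the other extreme, 6 root-preferring genes had 0 fragments in normal-potassium leaf, and they are named here after their values were seen. Leucine-rich repeat receptor-like kinase BAM1 Ma04_g14570, of a family that senses peptides, had 9.19 FPKM in root, at least 39.3-fold higher than the floor of 3 fragments in leaf. The others were the CASP-like gene above, the jasmonate-response repressor TIFY 5A-like Ma02_g14820 (6.97 FPKM in root), WRKY71 Ma06_g28830 (5.57 FPKM), DOF1.8-like Ma11_g20110 (7.50 FPKM) and DREB1F-like Ma10_g15560 (3.37 FPKM). The last 3 belong to transcription factor families.

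Gene lists drawn from words in the protein names are described beside the shares of all shared genes. Those shares were 12.4% leaf-preferring, 25.6% neither and 62.0% root-preferring. Members of oxylipin and jasmonate synthesis and response lay mostly on the root side: 0 of 22 were leaf-preferring, 4 were neither and 18 were root-preferring, beside 62.0% root-preferring among all shared genes. The list median was -2.49 on the log2 scale, against -1.68 for all shared genes. The synthesis enzymes included linoleate 9S-lipoxygenase 6-like Ma06_g26890 with 22.6 FPKM in leaf and 958 FPKM in root, 42.4-fold higher in root (37.4 to 48.2), and allene oxide cyclase 3 Ma03_g17130, of jasmonate synthesis, with 4.86 FPKM in leaf and 74.4 FPKM in root. The TIFY proteins, repressors that jasmonate removes, ranged widely. TIFY 10A-like Ma06_g32750 was nearly level at 79.8 FPKM in leaf and 99.3 FPKM in root, 1.24-fold higher in root (1.03 to 1.50). TIFY 10B-like Ma08_g18660 had 3.52 FPKM in leaf and 69.9 FPKM in root. Of 6 genes named TIFY 10B, 5 were root-preferring.

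Defence proteins and lectins were the most root-sided list with 3 or more members. Of 12, 0 were leaf-preferring, 1 was neither and 11 were root-preferring, with a median log2 of -4.76. In low potassium 1 was leaf-preferring, 5 neither and 6 root-preferring, with a median of -0.83. All 12 are listed as higher in leaf in low potassium and 5 as higher in root. That listing used the same normal-potassium levels, so the root side of this list is a description only. The list was drawn by words in the names and leaves out the leaf-preferring P21-like protein. Germin-like protein 2-1 Ma05_g29060, of a family of wall-bound proteins, had 2.19 FPKM in leaf and 86.1 FPKM in root, while thaumatin-like protein 1b Ma05_g11020 had 5.23 FPKM in leaf and 2.88 FPKM in root. Cell wall genes had 0 of 14 leaf-preferring, 3 neither and 11 root-preferring, with a median of -2.95. Pectinesterase-like Ma04_g40060, which removes methyl groups from pectin, had 7.86 FPKM in leaf and 248 FPKM in root, 31.6-fold higher in root (24.1 to 42.1). Xyloglucan endotransglucosylase/hydrolase 23 Ma03_g05070, which cuts and rejoins xyloglucan, had 78.1 FPKM in leaf and 150 FPKM in root, 1.92-fold (1.65 to 2.23), the highest leaf level of the list.

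Ethylene response and DREB factors were root-preferring in 8 of 9 cases, with 0 leaf-preferring and a median of -2.84. Ethylene-responsive transcription factor 11-like Ma08_g06680 had 17.4 FPKM in leaf and 188 FPKM in root, 10.8-fold higher in root (7.81 to 15.5). Abscisic acid, gibberellin, cytokinin and auxin genes had 0 of 8 leaf-preferring and 5 root-preferring, close to the 62.0% of all shared genes, with a median of -2.14. Abscisic acid 8'-hydroxylase 3 Ma04_g18900, which inactivates abscisic acid, lay slightly on the leaf side at 32.5 FPKM in leaf and 23.4 FPKM in root, 1.39-fold higher in leaf (1.12 to 1.72). IAA16-like Ma10_g00600, of the auxin-response repressors, had 7.07 FPKM in leaf and 53.2 FPKM in root, 7.52-fold higher in root (5.10 to 11.5). Under the median-ratio scaling the medians of these 5 lists stayed below 0, at -0.81 for oxylipins, -3.08 for defence, -1.27 for cell wall, -1.16 for ethylene and -0.46 for the other hormones. Their calls then included leaf-preferring genes: 3 leaf-preferring and 10 root-preferring for oxylipins, 1 and 9 for defence, 2 and 8 for cell wall, 1 and 5 for ethylene, and 3 and 3 for the other hormones.

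The WRKY and NAC transcription factor lists had medians closer to equal levels than all shared genes. Of 13 WRKY genes, 3 were leaf-preferring, 7 neither and 3 root-preferring, with a median of -0.41 that became 1.27 under the median-ratio scaling. WRKY26 Ma08_g01650 had 11.6 FPKM in leaf and 2.96 FPKM in root, and WRKY31 Ma10_g15390 had 69.8 FPKM in leaf and 111 FPKM in root, 1.60-fold higher in root (1.43 to 1.79). Of 12 NAC genes, 2 were leaf-preferring, 6 neither and 4 root-preferring, with a median of -0.52 that became 1.16. NAC2-like Ma03_g19830 had 10.6 FPKM in leaf and 88.4 FPKM in root, 8.33-fold higher in root (6.0 to 11.9), opposite to NAC29-like. All 4 copies of MYB44-like, a factor that Arabidopsis uses in stress responses, were root-preferring, but the median of the MYB list (-1.31) changed sign to 0.37 under the scaling.

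Receptor-like kinases were spread widely, with 3 of 18 leaf-preferring, 5 neither and 10 root-preferring, not far from the 62.0% root-preferring among all shared genes. The list also holds 3 leucine-rich repeat extensins and an F-box protein through their names. GSO-type receptor kinase Ma06_g10830 had 18.9 FPKM in leaf and 0.90 FPKM in root, while TMK1-like Ma08_g31260 had 0.25 FPKM in leaf and 18.7 FPKM in root. Their median of -1.07 became 0.61 under the scaling. Nitrogen, phosphate and sulfate genes had 3 of 7 leaf-preferring, 2 neither and 2 root-preferring, with a median of 0.07. Sulfate transporter 3.1-like Ma01_g20480 had 10.7 FPKM in leaf and 3.88 FPKM in root, and amino acid permease 3-like Ma08_g08030 had 3.22 FPKM in leaf and 7.84 FPKM in root.

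Genes of sucrose, trehalose and related sugars had 0 of 10 leaf-preferring, 3 neither and 7 root-preferring, beside 62.0% root-preferring among all shared genes. Their median of -1.27 became 0.41 under the scaling. The words behind this list leave out the polyol transporter and alpha-galactosidase described above, both leaf-preferring. Apart from sucrose synthase their ratios lay between -2.30 and 0.22: alpha,alpha-trehalose-phosphate synthase Ma03_g04770, which makes the sugar signal trehalose 6-phosphate, had 17.7 FPKM in leaf and 19.6 FPKM in root, 1.11-fold higher in root (0.913 to 1.35). Glutathione S-transferases were split. The 2 U18-like copies were leaf-preferring and the other 3 genes of the redox list were root-preferring, among them GSTF1 Ma02_g04250 with 84.3 FPKM in leaf and 1080 FPKM in root, 12.8-fold higher in root (11.2 to 14.7). Calcium sensors had 1 of 4 leaf-preferring, 1 neither and 2 root-preferring, with a median of -0.82 that became 0.86 under the scaling. Calmodulin-like protein 3 Ma03_g18040 had 15.7 FPKM in leaf and 135 FPKM in root, 8.57-fold higher in root (6.24 to 12.0). The protein named CML27, Ma10_g04830, had 77.9 FPKM in leaf and 95.7 FPKM in root, 1.23-fold (1.01 to 1.50).

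Among lists of 8 or 9 genes, cytochrome P450 enzymes had 1 leaf-preferring, 3 neither and 5 root-preferring, ubiquitin ligases had 1, 2 and 5, and lignin and phenylpropanoid enzymes had 2, 2 and 4. Their medians of -1.11, -1.60 and -0.91 changed sign to 0.57, 0.08 and 0.77 under the scaling. The cytochrome P450 and ubiquitin ligase counts lay close to the shares of all shared genes, 12.4% leaf-preferring and 62.0% root-preferring. Dirigent protein 21-like Ma10_g16880, of the proteins that steer lignan coupling, had 1.97 FPKM in leaf and 143 FPKM in root, 72.5-fold higher in root (28.0 to 268). RING-H2 finger protein ATL46-like Ma06_g38020, of the ubiquitin ligases, had 30.3 FPKM in leaf and 4.54 FPKM in root, 6.67-fold higher in leaf (4.28 to 10.9). The shortest lists add the following members. All 3 zinc finger genes were root-preferring, with a median of -3.01; the A20/AN1 stress-associated protein Ma03_g10800 had 103 FPKM in leaf and 327 FPKM in root, 3.18-fold higher in root (2.71 to 3.76). All 3 ABC and MATE carriers were root-preferring, with a median of -1.67 that became 0.01 under the scaling. Of 3 water-stress proteins, 2 were root-preferring and dehydrin COR410 was neither, and their median of -1.57 became 0.11. Of 4 ribosome, histone and cell division genes, 3 were root-preferring, among them 60S ribosomal protein L27-like Ma04_g08190 with 28.0 FPKM in leaf and 228 FPKM in root, 8.14-fold higher in root (5.97 to 11.3). The cyclin-dependent kinase regulatory subunit Ma02_g13560, of cell cycle control, was the exception at 47.3 FPKM in leaf and 39.1 FPKM in root, 1.21-fold higher in leaf (0.790 to 1.86). Of 3 bHLH factors, 2 were root-preferring and bHLH13-like Ma08_g27020 was neither, at 18.6 FPKM in leaf and 24.5 FPKM in root, and their median of -1.21 became 0.47 under the scaling. Both peroxidases were root-preferring. The words of the clock, CBL/CIPK and glycosyltransferase lists matched none of the 410 shared genes, although some genes named glucosyltransferases are among them.

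**Figure D3:**
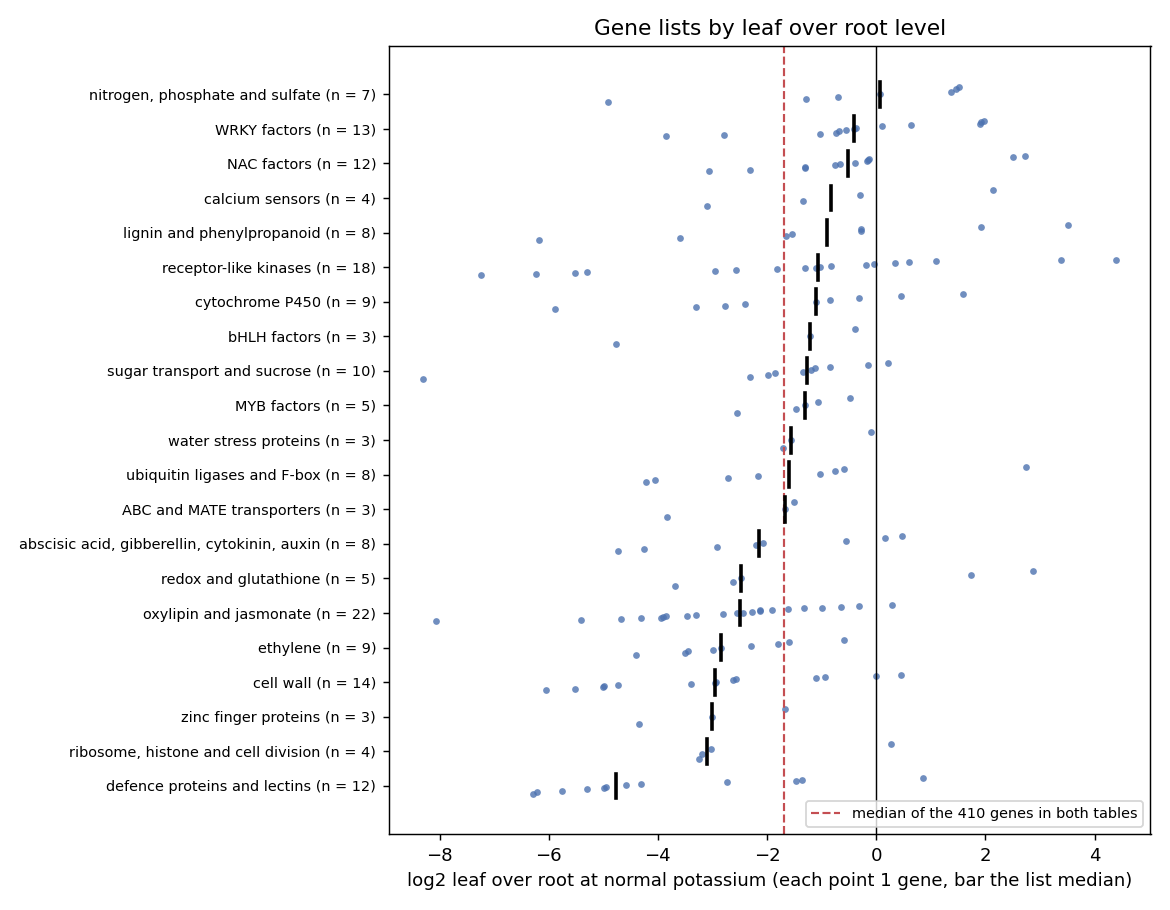
Each point is 1 shared gene placed by its log2 ratio of leaf over root at normal potassium, in rows for the gene lists with 3 or more members; black bars are list medians and the dashed line the median of all 410 genes (-1.68). Defence proteins and lectins sit lowest with a median of -4.76 and nitrogen, phosphate and sulfate genes highest with 0.07.

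Gene copies with the same name shared a preference in some families and not in others. In 35 families of 2 or more copies, holding 91 of the shared genes, every copy was root-preferring in 14 families and every copy was leaf-preferring in 1, the U18-like glutathione S-transferases. Among all shared genes 62.0% were root-preferring and 12.4% leaf-preferring. Whether copies share a preference more often than those shares alone would give was not tested. Leaf- and root-preferring copies occurred together in 2 families, and the remaining families held copies under the 2-fold limit. NAC100-like copies ranged from -2.31 to 2.51 on the log2 scale. Cytochrome P450 94C1-like copies ranged from -5.89 to 1.59, the highest being Ma08_g30090 at 0.63 FPKM in leaf and 0.21 FPKM in root. It is the only leaf-preferring copy of that family and lay below 1 FPKM in both tissues.

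The genes of the potassium table were divided more evenly between the tissues. Of the 30 with a fold, 12 (40.0%) were leaf-preferring, 14 (46.7%) were root-preferring and 4 (13.3%) were neither, and the median log2 ratio was -0.02. They took 0.115% of the fragments of leaf and 0.0915% of those of root. With a pseudocount of 1 FPKM, 11 were leaf-preferring and 10 root-preferring, with a median of 0.13. The order of the 2 counts and the sign of the median thus depend on the setting. Under the median-ratio scaling the counts were 16 leaf-preferring and 7 root-preferring, and the median was 1.66, so the leaf-preferring share of calls was 69.6% rather than 46.2%. The authors' tissue tables list 10 of the 31 for leaf and 22 for root, and only 1 in both, whereas every shared gene is listed in both. The 2 sets were thus chosen by unlike rules, and whether this shifts the split between tissues was not tested.

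Potassium transporters, carriers of the KUP/HAK/KT family that move potassium into cells, were mostly higher in leaf. Of 8, 5 were leaf-preferring, 1 was neither and 2 were root-preferring, and their FPKM values summed to 206 in leaf and 52.5 in root. Most of the leaf sum came from 2 genes. Transporter 11 Ma11_g16690 had 102 FPKM in leaf and 8.55 FPKM in root, 11.9-fold higher in leaf (9.58 to 14.9), and transporter 6-like Ma03_g06090 had 57.1 FPKM in leaf and 5.79 FPKM in root, 9.86-fold (7.56 to 13.1). The other leaf-preferring carriers were transporter 6-like Ma07_g21520 with 15.5 FPKM in leaf and 6.71 FPKM in root, transporter 13 Ma03_g24780 with 2.66 and 0.60 FPKM, and transporter 1 Ma05_g07130 with 1.66 and 0.37 FPKM. The transporter 1 value rests on 17 fragments in leaf and 4 in root, a 4.49-fold difference with an interval from 1.46 to 18.3.

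Copies of the same transporter did not always share a tissue. The other transporter 11 gene, Ma02_g04540, had 4.92 FPKM in leaf and 10.6 FPKM in root, 2.15-fold higher in root (1.43 to 3.29). Transporter 17 Ma07_g12190 had 1.05 FPKM in leaf and 7.80 FPKM in root, 7.43-fold higher in root (3.71 to 16.9). Transporter 7-like Ma09_g11150 had 21.2 FPKM in leaf and 12.1 FPKM in root, 1.76-fold higher in leaf (1.42 to 2.19) and under the limit for a call.

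Potassium channels fell on opposite sides. KAT3-like Ma07_g09180, named after a Shaker-type channel subunit, had 9.30 FPKM in leaf and 0.29 FPKM in root, 32.1-fold higher in leaf (10.6 to 159), with about 3 fragments in root. KOR1-like Ma08_g23650, named after a rice outward-rectifying channel, had 13.9 FPKM in leaf and 1.65 FPKM in root, 8.42-fold higher in leaf (5.15 to 14.6). KAT4-like Ma05_g09470 had 0.24 FPKM in leaf and 22.3 FPKM in root, 93.1-fold higher in root (25.4 to 774), with 2 fragments in leaf. The channel subunit beta Ma09_g24000, a cytosolic partner of voltage-gated channels, had 6.37 FPKM in leaf and 163 FPKM in root, 25.6-fold higher in root (17.3 to 39.5), the highest root level of the potassium table. KAT2-like Ma06_g28610 had 7.67 FPKM in leaf and 6.23 FPKM in root, and the interval of its 1.23-fold difference included 1 (0.872 to 1.74). A second KAT3-like gene, Ma10_g27850, had 0.20 FPKM in leaf and 0.10 FPKM in root, under the floor in both, and no fold is given.

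CBL-interacting kinases lay on both sides. They are called here by the numbers of the potassium table; the tissue tables name Ma07_g23630 kinase 18-like in place of 2, Ma06_g34240 kinase 14-like in place of 29 and Ma06_g26140 kinase 4-like in place of 7. All 5 genes named kinase 1 were leaf-preferring, with folds of 17.9 (6.67 to 67.5) for Ma07_g17570, 12.6 (9.94 to 16.2) for Ma03_g14540, 4.75 (3.76 to 6.06) for Ma11_g04530, 2.54 (1.92 to 3.39) for Ma01_g17400 and 2.35 (1.52 to 3.72) for Ma08_g10700. Ma03_g14540 was the most abundant of them, with 129 FPKM in leaf and 10.2 FPKM in root. Kinases 2 (Ma07_g23630, 67.8 FPKM in leaf and 51.8 FPKM in root) and 19 (Ma04_g15200, 21.0 and 26.6 FPKM) were neither. The remaining 7 were root-preferring, so that the summed level of the 14 kinases was similar, at 428 FPKM in leaf and 397 FPKM in root.

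Kinase 23 Ma04_g29510, whose Arabidopsis counterpart activates the root channel AKT1, had 3.88 FPKM in leaf and 24.9 FPKM in root, 6.43-fold higher in root (4.04 to 10.7). Kinase 11 Ma09_g04710 had 38.8 FPKM in leaf and 133 FPKM in root, 3.41-fold (2.93 to 3.99). Kinase 6 Ma07_g29120 had 28.1 FPKM in leaf and 91.3 FPKM in root, 3.24-fold (2.70 to 3.91), and kinase 6 Ma07_g05310 had 7.85 FPKM in leaf and 16.5 FPKM in root, 2.10-fold (1.45 to 3.06). These 4 had at least 20 fragments in each tissue. The other 3 were close to the floor in leaf: kinase 12 Ma06_g28510 had 0.17 FPKM in leaf and 3.15 FPKM in root, kinase 29 Ma06_g34240 had 0.19 and 0.88 FPKM with an interval that included 1, and kinase 7 Ma06_g26140 had 0 and 4.41 FPKM, at least 8.18-fold higher in root. Under the median-ratio scaling the kinases' median of -0.70 changed sign to 0.98.

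The last 3 genes of the potassium table were root-preferring. Cation/calcium exchanger 1-like Ma08_g20660 had 3.97 FPKM in leaf and 16.5 FPKM in root, 4.15-fold higher in root (2.74 to 6.51). Cation/calcium exchanger 5 Ma05_g18280 had 5.45 FPKM in leaf and 11.8 FPKM in root, 2.17-fold (1.49 to 3.21). Expansin-B16-like Ma04_g21520, of a family that loosens cell walls, had 0 FPKM in leaf and 31.3 FPKM in root, at least 34.3-fold higher in root.

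**Figure D4:**
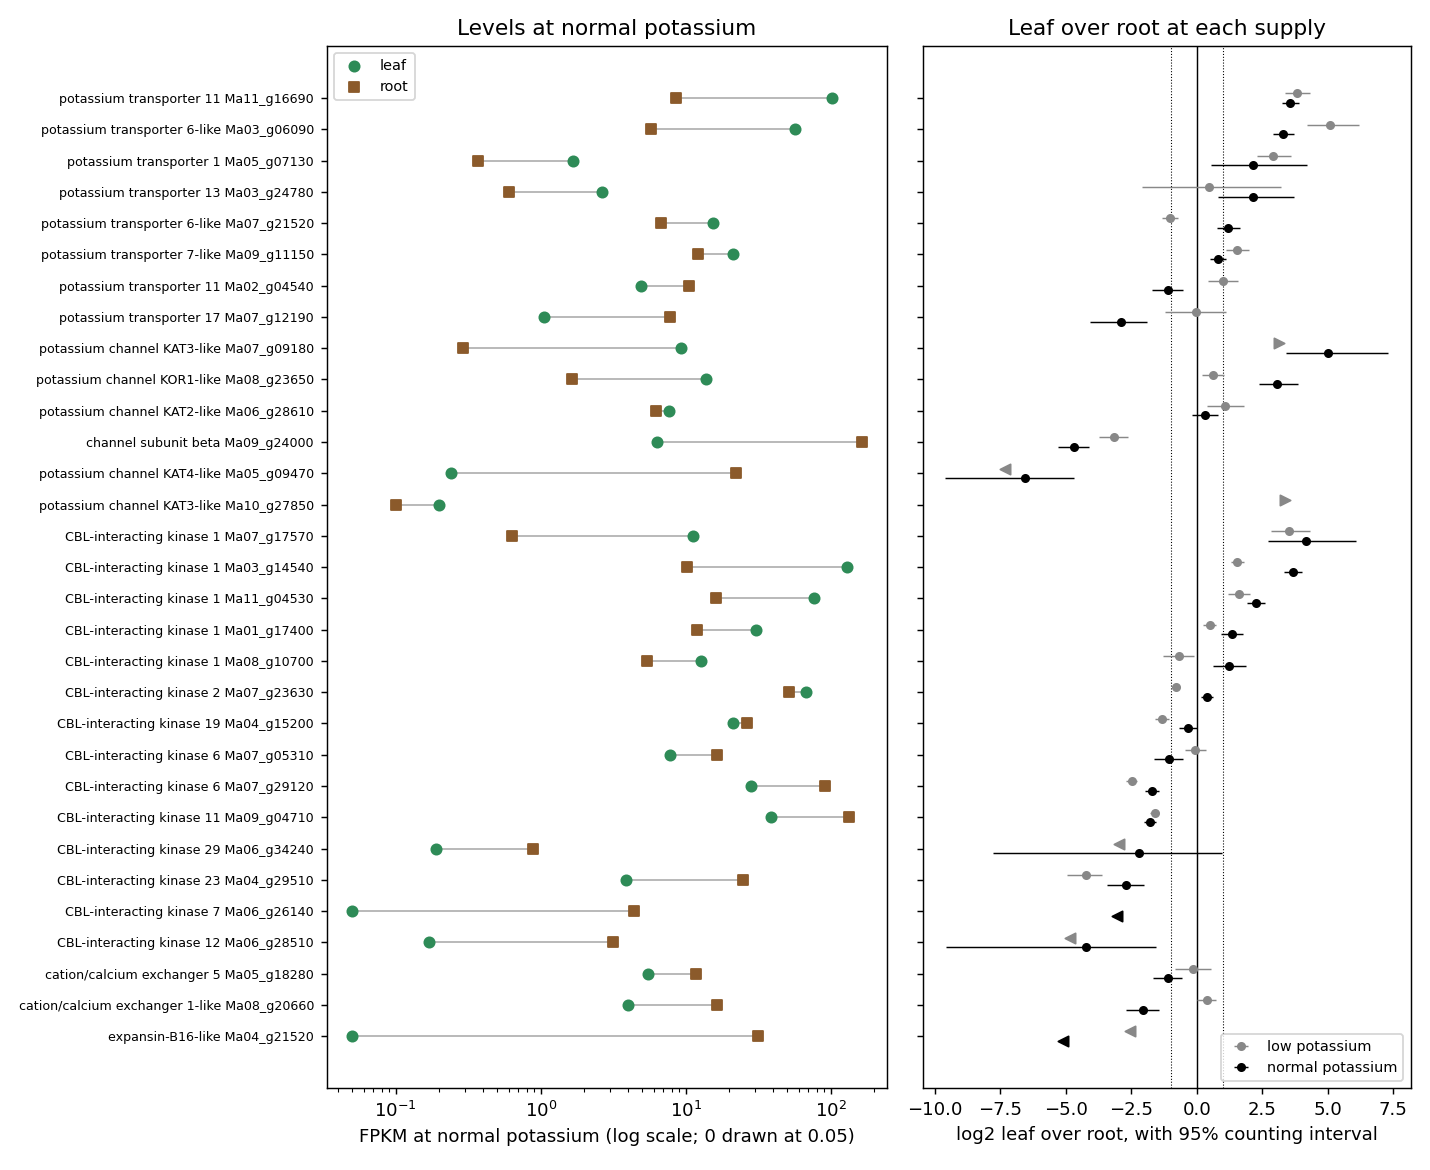
Left, FPKM at normal potassium in leaf (circles) and root (squares) on a log axis for the 31 genes of the potassium table, with 0 drawn at 0.05; right, the log2 ratio of leaf over root with its 95% counting interval in low potassium (grey, upper) and normal potassium (black, lower). Triangles are bounds where a library had 0 fragments, and dotted lines mark a 2-fold difference. The 5 kinase 1 genes lie right of 0 at normal potassium and the channel subunit beta and KAT4-like lie far left.

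The same genes were then read in the low-potassium libraries. Among the 409 shared genes with a fold there, 54 (13.2%) were leaf-preferring, 229 (56.0%) root-preferring and 126 (30.8%) neither, and the median log2 was -1.19 in low potassium against -1.68 at normal supply. A leaf preference at one supply with a root preference at the other was seen in 20 genes (4.89%). Of the 51 genes leaf-preferring at normal supply, 31 were leaf-preferring in low potassium as well, and of the 254 root-preferring genes 177 were. Among the potassium genes 11 of 30 were leaf-preferring in low potassium (36.7%), 10 root-preferring (33.3%) and 9 neither (30.0%). These counts share their libraries with the choice of the genes and are a description.

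The light-regulated protein Ma06_g30390 had 648 FPKM in leaf and 21.4 FPKM in root in low potassium, against 204 and 4.16 FPKM at normal supply, and was leaf-preferring in both. Nepenthesin-1-like Ma08_g02730 had 1028 FPKM in leaf and 6.29 FPKM in root in low potassium, against 373 and 29.9 FPKM at normal supply, so its leaf-over-root fold was 163 in low potassium and 12.5 at normal supply. Nitrate transporter 2.5-like Ma01_g16930 had 23.4 FPKM in leaf and 2.04 FPKM in root in low potassium, against 256 and 89.6 FPKM at normal supply. It was lower in low potassium in both tissues and leaf-preferring at both supplies.

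Genes that the authors list as higher in leaf and lower in root in low potassium were the most root-sided at normal supply. Of these 81 genes, 3 were leaf-preferring, 5 neither and 73 root-preferring at normal supply, with a median log2 of -3.85 (14.4-fold higher in root). In low potassium 21 were leaf-preferring, 39 neither and 21 root-preferring, with a median of -0.07. Part of that narrowing is fixed by the choice, since a gene that is at least 2-fold higher in leaf and 2-fold lower in root must move toward leaf. The choice also used the normal-potassium leaf and root levels that make the preference. The root side of this class at normal supply is therefore a description only. The class held 9 of the 10 most root-preferring named genes and all 4 mannose/glucose lectins, of which Ma09_g10440 had 464 FPKM in leaf and 966 FPKM in root in low potassium, against 117 and 6270.1 FPKM at normal supply. Median levels of the 81 genes were 21.0 FPKM in leaf and 23.7 FPKM in root in low potassium, against 6.58 FPKM in leaf and 86.6 FPKM in root at normal supply. Sucrose synthase Ma02_g23730 stayed far apart, with 17.7 FPKM in leaf and 1197 FPKM in root in low potassium.

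The reverse class, 30 genes lower in leaf and higher in root in low potassium, had a median of -2.97 in low potassium and of -0.03 at normal supply. At normal supply 11 were leaf-preferring, 12 neither and 7 root-preferring. The choice of this class used the same levels and fixes part of its move toward root. Copper transporter 6-like Ma02_g05010 belongs here, with 104 FPKM in leaf and 66.2 FPKM in root in low potassium, against 209 and 17.4 FPKM at normal supply. The 266 genes higher in both tissues had medians of -1.48 in low potassium and -1.55 at normal supply, though single genes moved further and 3 of them turned. The 33 genes lower in both tissues had medians of 0.40 in low potassium and -0.35 at normal supply. At normal supply 11 of the 33 were leaf-preferring, 12 neither and 10 root-preferring. The 13 WRKY genes were more root-sided in low potassium than at normal supply. In low potassium 1 was leaf-preferring, 2 neither and 10 root-preferring, with a median of -1.54, against -0.41 at normal supply. Among all shared genes with a fold in low potassium, 56.0% were root-preferring. All 13 WRKY genes are listed as higher in root in low potassium and 11 as higher in leaf. That listing used the same levels, so their shift toward root is a description only. WRKY40 Ma01_g00720 had 82.1 FPKM in leaf and 522 FPKM in root in low potassium, against 41.0 and 37.9 FPKM at normal supply.

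Among the potassium genes, KAT4-like Ma05_g09470 had 0 FPKM in leaf and 59.2 FPKM in root in low potassium, against 0.24 and 22.3 FPKM at normal supply. Transporter 6-like Ma07_g21520 had 14.7 FPKM in leaf and 29.6 FPKM in root in low potassium, against 15.5 and 6.71 FPKM at normal supply, and was root-preferring in the one and leaf-preferring in the other. Transporter 1 Ma05_g07130 had 20.7 FPKM in leaf and 2.73 FPKM in root in low potassium, against 1.66 and 0.37 FPKM at normal supply. Kinase 23 Ma04_g29510 had 3.97 FPKM in leaf and 74.6 FPKM in root in low potassium, against 3.88 and 24.9 FPKM at normal supply. The summed level of the 14 kinases was 528 FPKM in leaf and 1015 FPKM in root in low potassium, against 428 and 397 FPKM at normal supply.

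**Figure D5:**
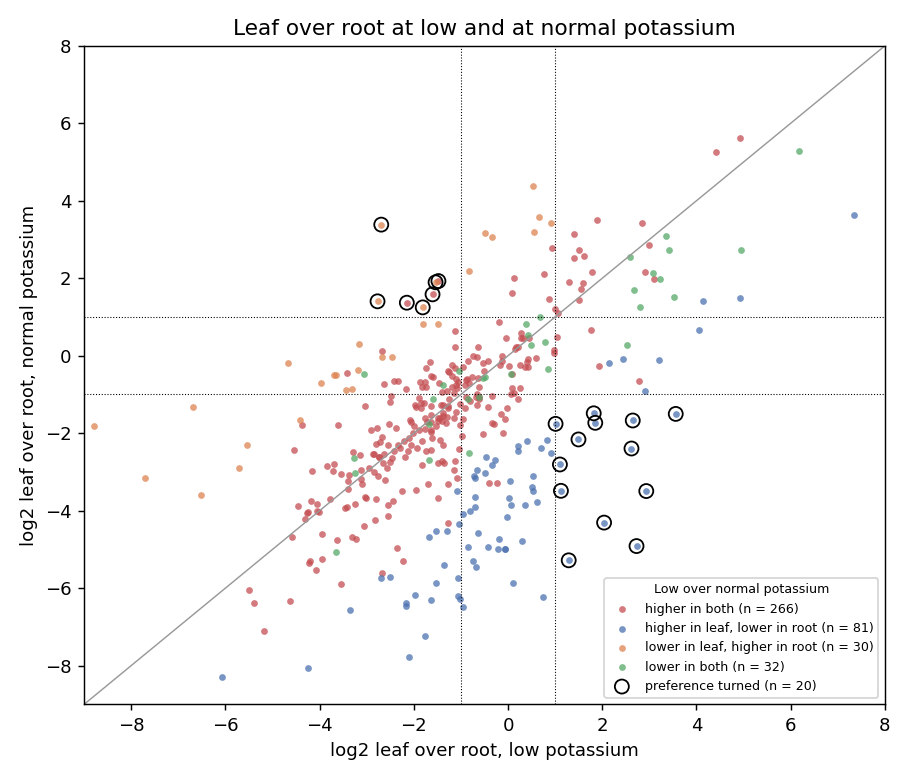
Each point is 1 of the 409 shared genes with a fold at both supplies, with the log2 ratio of leaf over root in low potassium on the x axis and at normal potassium on the y axis; ratios against a library with 0 fragments are drawn at their bound. The diagonal marks equal ratios, dotted lines 2-fold differences, colours the authors' direction in each tissue, and rings the 20 genes leaf-preferring at one supply and root-preferring at the other. Genes higher in leaf and lower in root lie mostly below the diagonal, and genes lower in leaf and higher in root lie above it. The choice of these classes fixes that, apart from genes drawn at a bound.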

How the data were processed

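The authors deposited, per the file headers, expression values (read here as estimated counts), gene lengths and FPKM values for each tissue's listed genes. The headers do not call the expression values counts, and the intervals and floors rest on that reading. The authors also deposited log2 ratios of low over normal potassium, p-values and FDR values. The sign of the log2 ratio gave the direction of each listed gene, and the p-values and FDR values were not used. A potassium table repeats the FPKM values. The smallest deposited absolute log2 ratio among the 410 shared genes was 1.0035 in leaf and 1.0045 in root. The sources used here name no aligner, counter or genome build, and the library protocol in the labels does not mark strand. Deposited counts are whole, within 0.001, in both normal-potassium libraries for 217 of the 410 genes. The other 193 may share fragments with similar genes.

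Counts of potassium genes outside a tissue's table were computed from FPKM, length and depth. Intervals are exact (Clopper-Pearson) binomial intervals of the 2 rounded counts, and PCR copies are not independent molecules, so intervals and floors cover counting error only. A count of 0 was set to a floor of 3 fragments in that library, and no fold is given where both counts are at or under it. Members and the 31 gene lists were chosen with earlier results of these data known. Genes named were all of the potassium table, the 10 at each end of the leaf-over-root ratio with informative names and at least median mean FPKM, the 5 highest in each tissue, the 5 nearest equality, the 10 largest swings of genes that turned, and the highest member of each list in each tissue. Others were named after their values were seen. Python 3.11.15, pandas 2.3.3, NumPy 2.4.6 and SciPy 1.17.1 were used, tested on simulated data.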

Additional observations from a re-analysis of the deposited data

Results flagged for a closer look

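Among the 409 shared genes with a fold at both supplies, 20 (4.89%) were at least 2-fold leaf-preferring at one supply and at least 2-fold root-preferring at the other. Of these, 13 were leaf-preferring in low potassium and root-preferring at normal supply, and 7 the reverse; 17 have opposite directions in the authors' tissue tables, which shares its libraries with this count. None of these differences was tested, since each value is 1 library.

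The swing, the log2 ratio of leaf over root in low potassium minus that at normal supply, was 7.64 for the NRT1/PTR family 6.3-like nitrate carrier Ma08_g10970, with 13.6 FPKM in leaf and 2.05 FPKM in root in low potassium against 0.22 and 6.64 FPKM at normal supply. It was 6.57 for the glucosyltransferase Ma08_g17340 (3.25 and 1.33 FPKM against 0.17 and 6.62 FPKM). Both rest on at most 2 leaf fragments at normal supply. The phylloplanin-like gene Ma08_g10050, of a family of secreted leaf-surface proteins in tobacco, swung by 6.43, with 83.7 FPKM in leaf and 10.9 FPKM in root in low potassium against 3.33 and 37.5 FPKM.

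Mannose-specific lectin-like Ma06_g16670 swung by 6.35, with 205 FPKM in leaf and 49.8 FPKM in root in low potassium against 25.2 and 499 FPKM at normal supply. This gene has whole counts and at least 52 fragments in each normal-potassium library. The swing was 5.06 for ABC transporter C15 Ma11_g25060 (7.44 and 0.63 FPKM against 2.46 and 6.97 FPKM) and 4.32 for ABC transporter G25-like Ma11_g10440 (9.22 and 1.47 FPKM against 2.34 and 7.46 FPKM), whose Arabidopsis counterpart exports abscisic acid. It was 5.02 for glucuronoxylan 4-O-methyltransferase Ma09_g01410 (9.48 and 1.54 FPKM against 2.16 and 11.4 FPKM), an enzyme of xylan decoration. It was 4.61 for the tropinone reductase homolog Ma09_g03450 (45.1 and 20.7 FPKM against 17.3 and 194 FPKM).

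Of the genes that turned toward root in low potassium, the LRR receptor-like kinase Ma02_g18240 swung by -6.08, with 3.29 FPKM in leaf and 21.3 FPKM in root in low potassium against 31.4 and 3.0 FPKM at normal supply. Ma08_g13690, which has no deposited protein match, swung by -4.18 (10.3 and 70.6 FPKM against 56.2 and 21.2 FPKM).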

How the results depend on the processing

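No paired analysis was possible because each group has 1 library and the labels carry no replicate numbers. For the same reason leaving out a library was not run.

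Scaling each tissue by the median ratio over the shared genes, which moves every ratio toward leaf, gave 131 leaf-preferring and 135 root-preferring genes with a median of 0 by construction, 7 root-preferring potassium genes with a median of 1.66, and 34 turned genes. Keeping only genes with whole counts left 32 leaf-preferring, 125 root-preferring and 12 turned genes, from 217 shared genes. It kept 18 potassium genes, with 8 leaf-preferring and 8 root-preferring. Potassium genes listed for 1 tissue were checked for whole counts in that tissue only. A limit of 4-fold left 29 leaf-preferring, 179 root-preferring and 5 turned genes. Among the potassium genes it left 9 leaf-preferring and 9 root-preferring. Further settings used pseudocounts of 1 or 0.1 FPKM, filters at 1 FPKM or 20 fragments, or counts per gene length. Another also asked each call for an interval without 1. These settings gave 47 to 51 leaf-preferring and 246 to 254 root-preferring genes. For the potassium genes these settings gave 11 to 12 leaf-preferring and 10 to 14 root-preferring, with medians from -0.02 to 0.30. A pseudocount of 1 moved 5 of 95 named ratios beyond their intervals, with no change of sign: Ma01_g18040 to -7.16, Ma05_g09470 to -4.23, Ma07_g09180 to 3.0, Ma08_g10970 to -2.65 and Ma08_g17340 to -2.70, each with few fragments in 1 tissue.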

Other observations

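Genes whose names describe a transporter, carrier or channel were counted after the values were seen, with no test. They were 19 of the 410 shared genes. They made up 8 of the 51 leaf-preferring genes (15.7%), 5 of the 105 genes under 2-fold (4.76%) and 6 of the 254 root-preferring genes (2.36%). Beside the carriers already given, the leaf-preferring ones were vacuolar amino acid transporter 1-like Ma06_g37300 with 7.13 FPKM in leaf and 2.76 FPKM in root, and the transporter YBR287W-like Ma05_g15730 with 8.42 FPKM in leaf and 1.41 FPKM in root. The root-preferring ones included the mechanosensitive ion channel 6-like Ma08_g14070 with 0.08 FPKM in leaf and 4.64 FPKM in root, and the MATE carrier LAL5-like Ma02_g11730 with 3.67 FPKM in leaf and 52.5 FPKM in root, 14.3-fold higher in root (95% interval 9.55 to 22.4). Transcription factors were 56 of the 410 shared genes. They made up 5 of the 51 leaf-preferring genes (9.80%), 18 of the 105 genes under 2-fold (17.1%) and 33 of the 254 root-preferring genes (13.0%).

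Genes without an informative name made up 12 of the 51 leaf-preferring and 47 of the 254 root-preferring genes. The 2 shared genes with the highest leaf levels at normal supply, named after their values were seen, are of this kind. Ma04_g29230 had 910 FPKM in leaf and 577 FPKM in root, and Ma02_g17700 had 815 FPKM in leaf and 20.8 FPKM in root, 39.3-fold higher in leaf.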
